A study of Gallus gallus with 16 samples.

Results

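The antioxidant and redox enzymes described here are 10 genes: GSR, GCLC, SOD1, SOD2, CAT, PRDX1, PRDX3, PRDX6, TXN and TXNRD1. Every probe set, a group of short probes summarized as 1 value, was taken whose platform annotation gives exactly 1 symbol and that symbol is in the list. This gave 19 of the 38439 probe sets tested, for 10 of the 13009 genes that the annotation names in this way. GSR, SOD2, PRDX1 and TXN had 1 probe set each and the other genes had several, which are numbered here from the brightest, so that CAT (1) is the brightest of 3.

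RNA came from the duodenum, where the small intestine begins, of chickens divergently selected for residual feed intake, the feed eaten above or below what growth and maintenance call for. The groups were the low line (LRFI) at day 42, the high line (HRFI) at day 42, LRFI at day 35 and HRFI at day 35, with 4 arrays each and 16 in all. The labels give no sex, diet or hatch, name no unselected line, and do not tell whether each array is a bird of its own. The p-values therefore describe array-to-array spread, some of which may be technical. Values are log2 expression levels, on which 1 unit is a doubling, and array medians lay between 5.05 and 5.10. Arrays have no read depth, so their number limits the precision.

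These enzymes form a relay that disposes of reactive oxygen. Superoxide dismutases turn superoxide into hydrogen peroxide, SOD1 mainly in the cytosol and SOD2 in mitochondria, and catalase (CAT) breaks hydrogen peroxide down in peroxisomes. Peroxiredoxins reduce peroxides with electrons that come, for PRDX1 and PRDX3, from thioredoxins, which thioredoxin reductases such as TXNRD1 recharge with NADPH. GCLC is the catalytic subunit of the enzyme that starts glutathione synthesis, and GSR returns oxidized glutathione to its reduced form, also with NADPH. In birds and mammals the absorptive cells of the small intestine meet oxidants from food, microbes and their own mitochondria, and much of this system is regulated by the transcription factor NRF2 (gene NFE2L2).

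No member differed between the lines or between the ages past the threshold, an adjusted p under 0.05 (limma, Benjamini-Hochberg over the 38439 probe sets). The threshold was also passed by few probe sets of the whole array: 1 (0.0026%) between the lines at day 42, 1 (0.0026%) between the ages averaged over both lines, and 0 (0%) in each of the other 5 comparisons. What the members showed were small, mostly positive differences of LRFI against HRFI and of day 42 against day 35. By unadjusted p, averaged over ages or lines, they were led by GSR and CAT between the lines and by GCLC and CAT between the ages.

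Some arrays stood apart. Markers of pancreatic acinar cells, of which 9 of 13 were measured, averaged 11.50 on LRFI day 42 replicate 2 and 13.94 on HRFI day 35 replicate 3, against 4.45 to 5.66 on the other 14 arrays. The difference between the 3′ and 5′ actin control probe sets, a sign of RNA quality or labelling, was over 1 on 5 arrays: HRFI day 42 replicate 4, LRFI day 35 replicates 3 and 4, and HRFI day 35 replicates 2 and 3. The corresponding GAPDH difference was highest on the 4 LRFI day 42 arrays, at 0.36 to 0.40 against 0.05 to 0.31 on the others. The 2 measures marked different arrays: those 4 had actin differences of 0.19 to 0.42, and the 5 with a high actin difference had GAPDH differences of 0.05 to 0.26. Whether the GAPDH difference reflects RNA quality was not tested. Of 14 enterocyte (absorptive cell) markers 13 were measured, all above the median level, and their mean lay between 11.25 and 11.58 on every array. In whole tissue, fewer cells of a type and less RNA per cell cannot be told apart.

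Most of the enzymes were bright. Of the 19 probe sets, 14 lay above the median level of the array, 13 in the top 25% and 10 in the top 10%. A probe set's brightness depends on its probes as well as on its transcript, so this does not rank the genes. The brightest probe sets of TXN, PRDX1, SOD1 and CAT averaged 13.92, 13.54, 13.43 and 13.30 over the 16 arrays. SOD2 averaged 12.62, PRDX6 (1) 12.14 and PRDX3 (1) 11.75, GSR 9.94 and GCLC (1) 8.51. The 3 probe sets of TXNRD1 were dim, with means of 4.94, 3.40 and 2.57, all under the median probe set mean of 5.07, so that this reductase was poorly measured. SOD1 (2), at 4.03, and GCLC (3), at 2.87, were dim as well. Differences of dim probe sets may be compressed, which was not tested here.

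**Figure D1:**
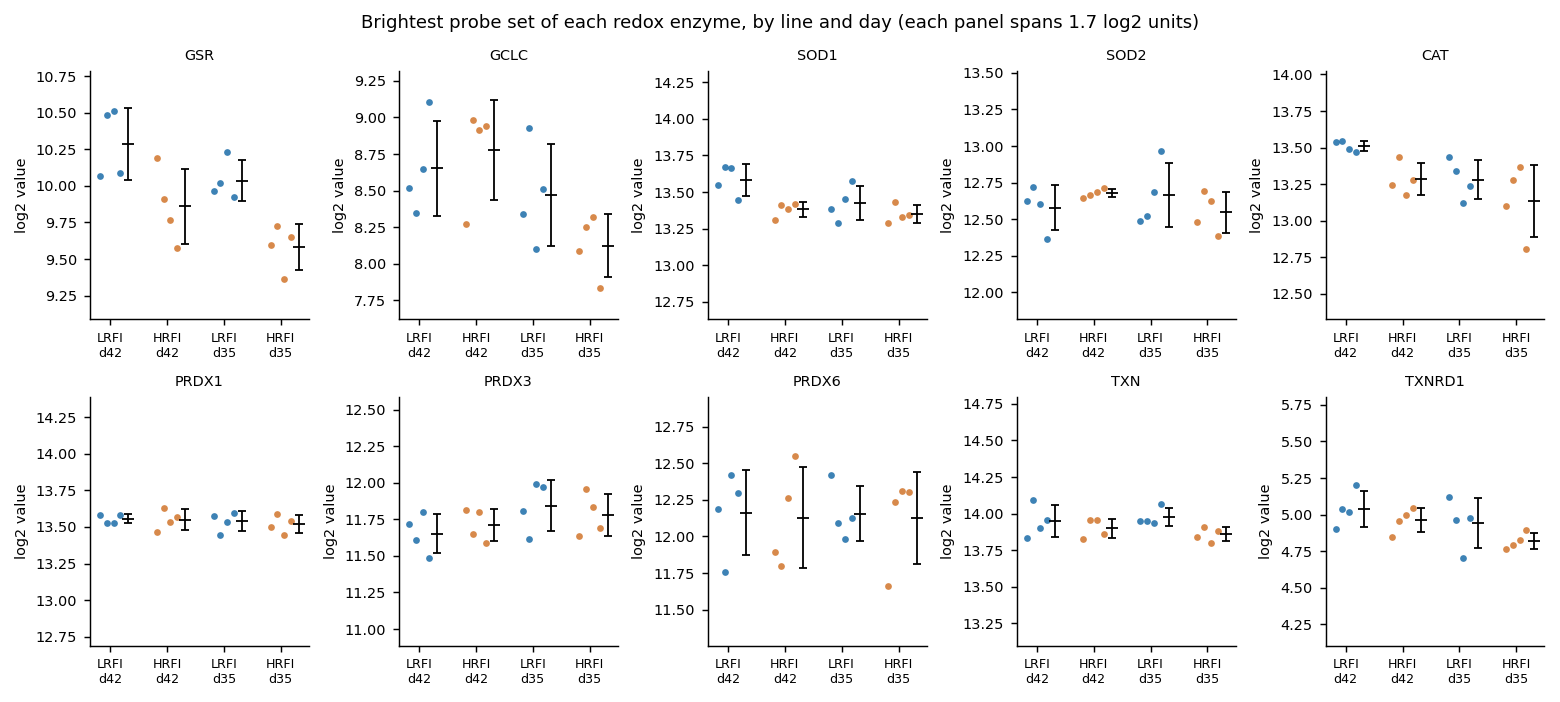
Log2 value (y axis) of the brightest probe set of each of the 10 enzymes on every array (points, 4 per group) for LRFI and HRFI at day 42 and day 35 (x axis), with the mean and SD of each group as a bar beside the points. GSR lies higher in LRFI than in HRFI at both ages by 0.43 and 0.45 without passing the threshold, while PRDX1, TXN and SOD1 hardly vary.

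The spread between arrays of a group differed widely among the enzymes. PRDX1, a cytosolic peroxiredoxin, ran from 13.45 to 13.63 over all 16 arrays, with an SD within groups of 0.059. That SD was at the 8.4th percentile of the 500 probe sets nearest to it in level. TXN, the cytosolic thioredoxin, had an SD of 0.075 and SOD1 (1) of 0.090. At the other end, GCLC (2) had an SD of 0.44, PRDX3 (2) of 0.44 and CAT (3) of 0.40, against a median of 0.21 for the members and 0.17 for all probe sets. A difference of a given size was therefore measured with very different precision from one enzyme to the next.

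GSR, glutathione reductase, gave the lowest p of the members for LRFI against HRFI averaged over both ages. At day 42 its values were 10.06, 10.49, 10.51 and 10.09 on the LRFI arrays, against 10.19, 9.91, 9.76 and 9.58 on the HRFI arrays. At day 35 they were 9.97, 10.02, 10.23 and 9.92 in LRFI, against 9.59, 9.72, 9.36 and 9.65 in HRFI. The groups did not overlap at day 35, where every LRFI array was above every HRFI array. At day 42 a single HRFI array, replicate 1, lay within the LRFI range.

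The difference of GSR between the lines was 0.43 (SE 0.14) at day 42 and 0.45 (SE 0.14) at day 35, and 0.44 (SE 0.098, 95% interval 0.23 to 0.65) averaged over both. Each of the 8 LRFI arrays exceeded the mean of HRFI. The averaged difference had an unadjusted p of 0.00039, which was 12th in order of p among all probe sets, and an adjusted p of 0.777, so it did not pass. With the enterocyte marker mean as a covariate the difference at day 35 was 0.25 (unadjusted p 0.133) and the average 0.34 (unadjusted p 0.0046). At day 35 that marker mean was 11.39 to 11.52 in LRFI, against 11.25 to 11.41 in HRFI, and its part in the GSR difference at that age was not tested beyond this fit. With the GAPDH difference as a covariate the day 42 value was 0.72. Between the ages GSR was 0.26 (SE 0.098) higher at day 42 averaged over both lines (adjusted p 0.320), and 0.12 with the enterocyte covariate.

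GCLC, the other enzyme of the glutathione pair, had its lowest p between the ages by its 2 brighter probe sets. GCLC (1) was 8.27, 8.98, 8.91 and 8.94 in HRFI at day 42, against 8.09, 8.25, 8.32 and 7.84 in HRFI at day 35. In LRFI it was 8.52, 8.35, 8.65 and 9.10 at day 42, against 8.34, 8.93, 8.10 and 8.51 at day 35. The HRFI arrays of day 42 lay above those of day 35 except for replicate 1, while the LRFI groups overlapped widely. The age difference was 0.65 (SE 0.20, adjusted p 0.395) in HRFI and 0.18 (SE 0.20, adjusted p 0.797) in LRFI. Their own difference, the interaction of line and age, was −0.47 (SE 0.28, adjusted p 0.820), so the lines were not shown to differ in this respect.

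GCLC (2) is dimmer and followed GCLC (1), with Pearson's r of 0.89 over the 16 arrays, a description over arrays that share groups. It was 5.13, 5.80, 5.82 and 5.36 in HRFI at day 42, against 4.68, 4.68, 4.70 and 4.30 in HRFI at day 35, with no overlap. In LRFI it was 5.37, 5.28, 6.09 and 6.27 at day 42, against 5.07, 5.94, 4.45 and 4.92 at day 35. All 8 arrays of day 42 were above the mean of day 35. The age difference was 0.94 (SE 0.28) in HRFI, 0.65 (SE 0.28) in LRFI and 0.79 (SE 0.20) averaged over both lines. The averaged difference had an adjusted p of 0.172, the lowest of any member in any comparison, and did not pass. In LRFI it was 0.25 without the arrays with a high actin difference and 0.05 with the GAPDH difference as a covariate, a measure that in LRFI was higher on each day 42 array than on any day 35 array. In HRFI those fits gave 1.09 and 1.12, while the enterocyte marker mean as a covariate gave 0.56. That marker mean was 11.42 to 11.55 in HRFI at day 42, against 11.25 to 11.41 in HRFI at day 35, and its r with GCLC (2) over the 16 arrays was 0.68. Between the lines at day 35, GCLC (2) had the largest difference of the members, 0.51 (SE 0.28, adjusted p 0.797), and GCLC (1) had 0.35 (SE 0.20, adjusted p 0.807), both with overlap. At day 42 these line differences were 0.23 (SE 0.28) and −0.12 (SE 0.20).

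The dim probe set GCLC (3) did not follow the other probe sets of the gene. It averaged 2.70 ± 0.08 in LRFI and 2.97 ± 0.10 in HRFI at day 42 (SD, n = 4 each), with no overlap. The difference of −0.26 (SE 0.081) had an adjusted p of 0.796. Between the ages in LRFI it was −0.23 (SE 0.081, adjusted p 0.408; −0.12 without the arrays with a high actin difference), opposite in sign to the other GCLC probe sets, and its r with them was −0.10 and −0.42.

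Catalase gave the lowest p of the members for LRFI against HRFI at day 42. CAT (2) was 13.23, 13.24, 13.05 and 12.89 in LRFI at day 42, against 12.26, 12.29, 12.59 and 12.33 in HRFI. At day 35 it was 13.02, 12.92, 12.65 and 12.80 in LRFI, against 12.74, 12.53, 12.95 and 11.83 in HRFI. The lines were fully apart at day 42 and overlapped at day 35, where HRFI spanned more than 1 unit with replicate 4 as its lowest array. The difference between the lines was 0.74 (SE 0.18, adjusted p 0.683) at day 42 and 0.34 (SE 0.18, adjusted p 0.795) at day 35. Averaged over both it was 0.54 (SE 0.13, unadjusted p 0.00073, adjusted p 0.777), and each of the 8 LRFI arrays exceeded the mean of HRFI.

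The day 42 difference of CAT (2) coincided with the GAPDH control. With the GAPDH difference as a covariate it was 0.21 (unadjusted p 0.526), and with the actin difference as a covariate 0.76. The average over both ages was 0.33 with the GAPDH covariate. Because the 4 LRFI day 42 arrays had the 4 highest GAPDH differences, line at this age and the GAPDH difference cannot be told apart. Without the arrays with pancreatic markers the day 42 difference was 0.69.

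CAT (1) showed the same order with smaller differences. Its values at day 42 were 13.54, 13.55, 13.49 and 13.47 in LRFI, against 13.25, 13.44, 13.18 and 13.28 in HRFI. The lowest LRFI array was just above the highest HRFI array. The difference was 0.22 (SE 0.11, adjusted p 0.903) at day 42, 0.14 (SE 0.11) at day 35 and 0.18 (SE 0.078, adjusted p 0.897) averaged over both. That average was 0.33 without the arrays with a high actin difference and 0.10 with the GAPDH covariate. In LRFI, day 42 also lay above day 35 (13.43, 13.34, 13.12 and 13.23) without overlap, by 0.23 (SE 0.11, adjusted p 0.514).

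CAT (3) differed by age more than by line. It was 7.60, 7.89, 8.22 and 7.66 in LRFI at day 42, against 7.64, 7.36, 6.95 and 6.71 at day 35. In HRFI it was 7.52, 8.33, 7.20 and 7.07 at day 42, against 7.17, 6.71, 6.54 and 6.97 at day 35. All 8 arrays of day 42 were above the day 35 mean of their line, although the ranges overlapped. The age difference was 0.68 (SE 0.25) in LRFI, 0.68 (SE 0.25) in HRFI and 0.68 (SE 0.18, adjusted p 0.177) averaged over both lines. Across the 16 arrays the values of CAT (3) ran against the actin difference (r −0.76), and with that difference as a covariate the averaged age difference was 0.46 (adjusted p 0.419). With the enterocyte marker mean as a covariate it was 0.45. In LRFI it was 0.34 without the arrays with a high actin difference. In HRFI it was 0.43 with the actin covariate, 0.29 with the enterocyte covariate and 0.41 without day 42 replicate 2. Between the lines CAT (3) differed by 0.31 (SE 0.25) at day 42 and 0.32 (SE 0.25) at day 35. The age difference of CAT (2) was 0.25 (SE 0.18) in LRFI, −0.15 (SE 0.18) in HRFI and 0.053 (SE 0.13) averaged over both lines. That of CAT (1) was 0.19 (SE 0.078) averaged. Over the 16 arrays the r of CAT (3) was 0.58 with CAT (1) and 0.23 with CAT (2). The age difference of CAT therefore depended on the probe set.

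**Figure D2:**
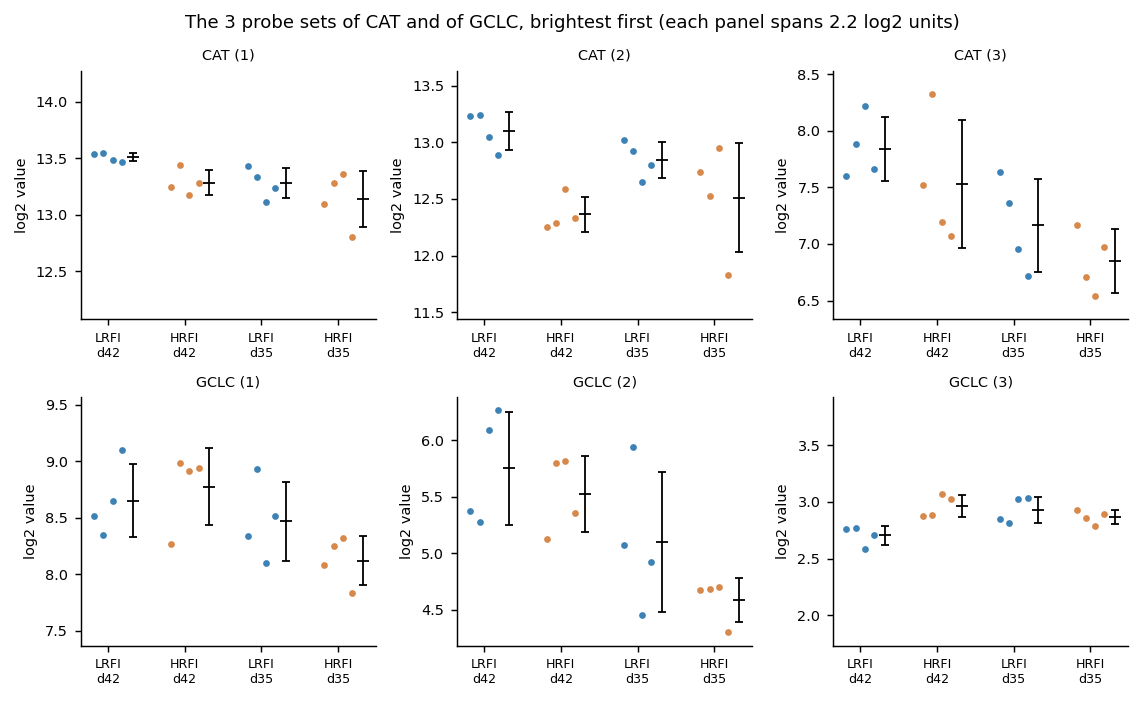
Log2 value (y axis) of the 3 probe sets of CAT (top) and of GCLC (bottom), brightest first, on every array (points, 4 per group), with the mean and SD of each group beside the points. CAT (2) is apart between LRFI (mean 13.10) and HRFI (12.37) at day 42, GCLC (2) is apart between day 42 (5.53) and day 35 (4.59) in HRFI, and the dim GCLC (3) follows neither pattern; none of these passed the threshold.

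SOD1 (1) and SOD2 varied little, but not unusually so for their level. Among the 500 probe sets nearest in level, their SDs within groups were at percentiles 27.2 and 53. SOD1 (1) was 13.55, 13.67, 13.66 and 13.45 in LRFI at day 42, against 13.31, 13.41, 13.38 and 13.42 in HRFI. The lines did not overlap at this age, although the gap between them was small, and the difference was 0.20 (SE 0.080, unadjusted p 0.0226, adjusted p 0.871). At day 35 it was 0.076 (SE 0.080), with overlap. Averaged over both ages the difference was 0.14 (SE 0.056, adjusted p 0.896). With the GAPDH difference as a covariate the day 42 value was 0.15 (unadjusted p 0.344). The dim SOD1 (2) had the opposite sign at day 42, −0.30 (SE 0.14, adjusted p 0.888), and −0.51 with the GAPDH covariate.

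SOD2 gave 12.58 ± 0.15 in LRFI and 12.68 ± 0.03 in HRFI at day 42, and 12.67 ± 0.22 in LRFI and 12.55 ± 0.14 in HRFI at day 35 (SD, n = 4 each). Its 4 groups overlapped, and none of its 7 comparisons reached an unadjusted p under 0.05. The difference between the lines averaged over both ages was 0.011, with a 95% interval of −0.15 to 0.18.

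Among the peroxiredoxins, PRDX1 was measured with the least spread. It differed between the lines by 0.013 averaged over both ages, with a 95% interval of −0.090 to 0.12, and between the ages by 0.023, with an interval of −0.080 to 0.13. These intervals bound the difference in the signal of this probe set to a small part of a doubling. Whether so bright a signal follows its transcript in full was not tested. PRDX6 (1), a peroxiredoxin that uses glutathione, differed between the lines by 0.032, with an interval of −0.25 to 0.31. Its spread was larger, with single arrays from 11.66 to 12.55. PRDX6 (2) followed it over the arrays (r 0.88) and differed between the lines by 0.081 (SE 0.12).

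PRDX3 is the mitochondrial peroxiredoxin, and its probe sets disagreed. PRDX3 (1) was 11.72, 11.61, 11.80 and 11.48 in LRFI at day 42, against 11.81, 11.61, 11.99 and 11.97 in LRFI at day 35. All 4 arrays of day 42 were below the day 35 mean, but the ranges overlapped, and the difference was −0.19 (SE 0.10, adjusted p 0.571). PRDX3 (2) pointed the other way in the same comparison at 0.47 (SE 0.27, adjusted p 0.591). Between the lines, PRDX3 (1) differed by 0.0020 averaged over both ages and PRDX3 (2) by 0.41 (SE 0.19, adjusted p 0.897). The r between them was −0.17, so no level can be given for PRDX3 as a gene.

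TXN was 13.95, 13.95, 13.94 and 14.07 in LRFI at day 35, against 13.84, 13.91, 13.80 and 13.88 in HRFI. The LRFI arrays were all above the HRFI arrays, by 0.12 (SE 0.074, adjusted p 0.824). At day 42 the lines overlapped and differed by 0.048 (SE 0.074). TXNRD1 (1) was 5.04 ± 0.12 in LRFI and 4.96 ± 0.08 in HRFI at day 42, and 4.94 ± 0.17 in LRFI and 4.82 ± 0.05 in HRFI at day 35 (SD, n = 4 each). Its largest difference was 0.14 (SE 0.092) between the ages in HRFI.

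TXNRD1 (2) was 3.28, 3.45, 2.84 and 3.29 in LRFI at day 35, against 3.39, 4.25, 3.72 and 3.16 in HRFI. The difference was −0.41 (SE 0.19, unadjusted p 0.0431, adjusted p 0.744). The highest HRFI values were on replicates 2 and 3, both with a high actin difference. Without the 5 arrays with a high actin difference the sign turned, to 0.096, and without HRFI day 35 replicate 2 the difference was −0.20. TXNRD1 (3) was among the dimmest probe sets of the array and differed by −0.12 (SE 0.090) between the lines at day 42 and −0.076 (SE 0.090) at day 35.

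Taking the 19 probe sets as a set, LRFI was higher than HRFI for 12 at day 42, 17 at day 35 and 15 averaged over both ages. Over all probe sets the percentages with LRFI higher were 47.2%, 46.1% and 44.8%. Among those above the median level, where 14 of the members lie, they were 49.7%, 49.8% and 48.9%. The members were chosen with earlier results of these data known, so these counts describe them and are no test of the set. The median differences of the members were 0.043, 0.12 and 0.083, against −0.0091, −0.013 and −0.012 over all probe sets. Among those above the median level they were −0.0013, −0.00085 and −0.0027. By the brightest probe set of each of the 10 genes, the members' medians were 0.042, 0.12 and 0.092, with 7, 10 and 10 genes higher in LRFI. At day 42, 3 member probe sets were wholly higher in LRFI (SOD1 (1), CAT (1) and CAT (2)), where 1.74% of all probe sets were, and 1 was wholly lower (GCLC (3)), where 2.69% were. At day 35, 2 were wholly higher (GSR and TXN), where 0.994% of all were, and 0 were wholly lower, where 1.88% were.

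An unadjusted p under 0.05 for LRFI against HRFI was reached by 5 members at day 42 (5.57% of all probe sets), by 2 at day 35 (6.66%) and by 4 averaged over both ages (5.48%). The 4 were GSR, SOD1 (1), CAT (1) and CAT (2), all higher in LRFI (2.19% of all probe sets), and 2 of them are probe sets of the same gene. Adjusted p-values of the members were at least 0.683 at day 42, 0.637 at day 35 and 0.777 averaged. Per array, the mean of the 19 probe sets was 9.18 to 9.23 in LRFI at day 42, 9.05 to 9.13 in HRFI at day 42, 8.93 to 9.13 in LRFI at day 35 and 8.87 to 9.00 in HRFI at day 35. The 4 LRFI day 42 arrays were thus the highest of the 16 in this mean, and the same arrays had the highest GAPDH differences. HRFI at day 35, which held the lowest array, also had the lowest enterocyte marker mean. That mean was 11.32, against 11.46 in LRFI at day 35, 11.49 in HRFI at day 42 and 11.495 in LRFI at day 42. The counts and medians of the set were not refitted with either measure, so the part of each was not tested.

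**Figure D3:**
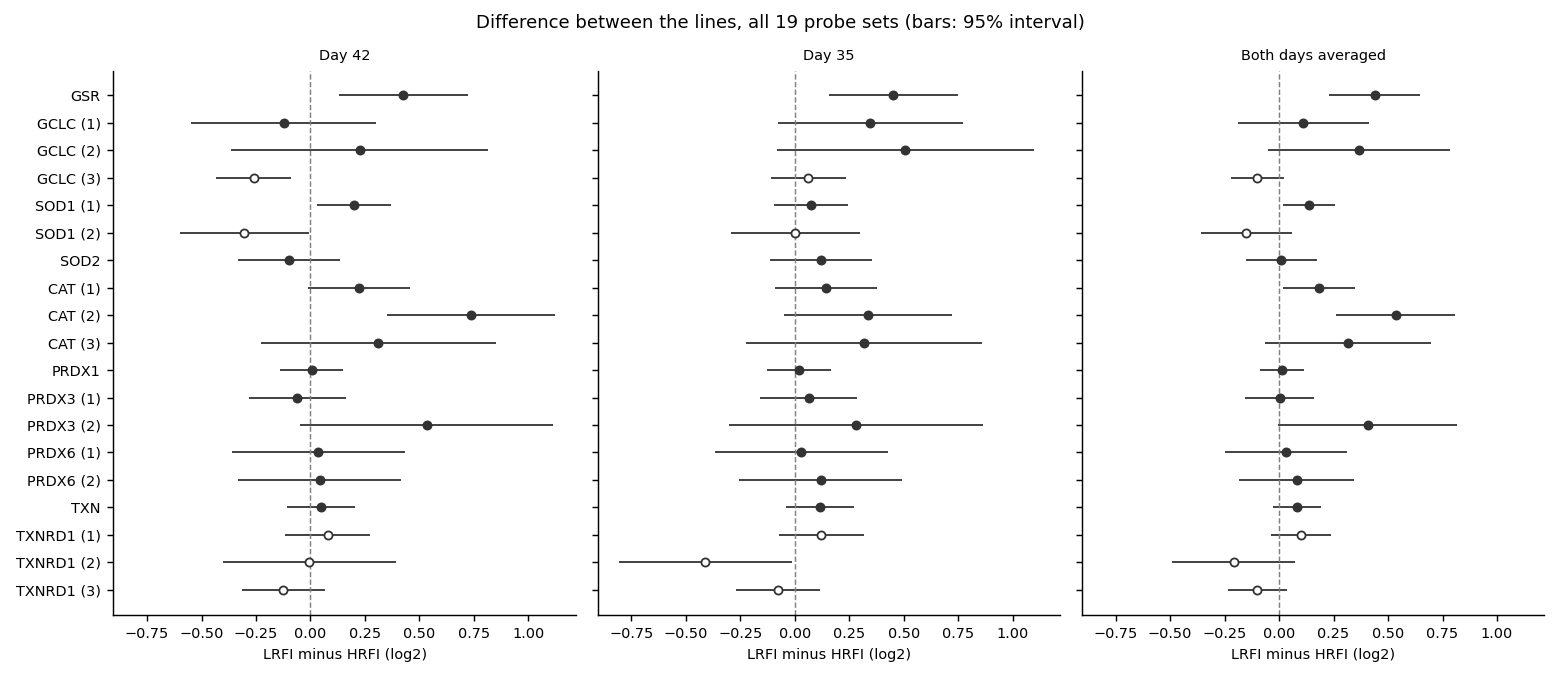
LRFI minus HRFI in log2 units (x axis) with its 95% interval for each of the 19 probe sets (y axis) at day 42, at day 35 and averaged over both; filled points are probe sets above the median level of the array and open points are dimmer ones. Intervals of GSR lie above 0 in all panels and that of CAT (2) at day 42 and in the average, before any adjustment for the 38439 tests.

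Day 42 was higher than day 35 for 14 of the 19 probe sets in LRFI, 16 in HRFI and 16 averaged over both lines. Over all probe sets the percentages were 48.9%, 46.7% and 45.8%, and among those above the median level 51.4%, 50.3% and 49.1%. The members' median differences were 0.099, 0.13 and 0.094, against −0.0042, −0.011 and −0.011 over all. Among probe sets above the median level they were 0.0062, 0.0011 and −0.0033. By the brightest probe set of each of the 10 genes, the members' medians were 0.058, 0.086 and 0.059, with 7, 9 and 9 genes higher at day 42. Here too the counts describe chosen members and are no test of the set. In LRFI, 1 probe set was wholly higher at day 42 (CAT (1)), where 2.15% of all probe sets were, and 1 wholly lower (GCLC (3)), where 2.83% were. In HRFI, 1 was wholly higher (GCLC (2)), where 2.12% of all were, and 0 wholly lower, where 2.46% were. These counts are few, and the 2 age comparisons within lines used separate arrays.

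An unadjusted p under 0.05 between the ages was reached by 3 members in LRFI (9.83% of all probe sets), 4 in HRFI (8.28%) and 5 averaged over both lines (11.8%). The 5 were GSR, GCLC (1), GCLC (2), CAT (1) and CAT (3), all higher at day 42 (6.18% of all probe sets). Their adjusted p-values were 0.172 to 0.363. The interaction of line and age reached an unadjusted p under 0.05 for 1 member, the dim GCLC (3) at −0.32 (SE 0.11, adjusted p 0.714; −0.16 without the arrays with a high actin difference), where 6.34% of all probe sets did. Of the 19 interactions 13 were negative, with a median of −0.044 against 0.0014 over all probe sets.

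**Figure D4:**
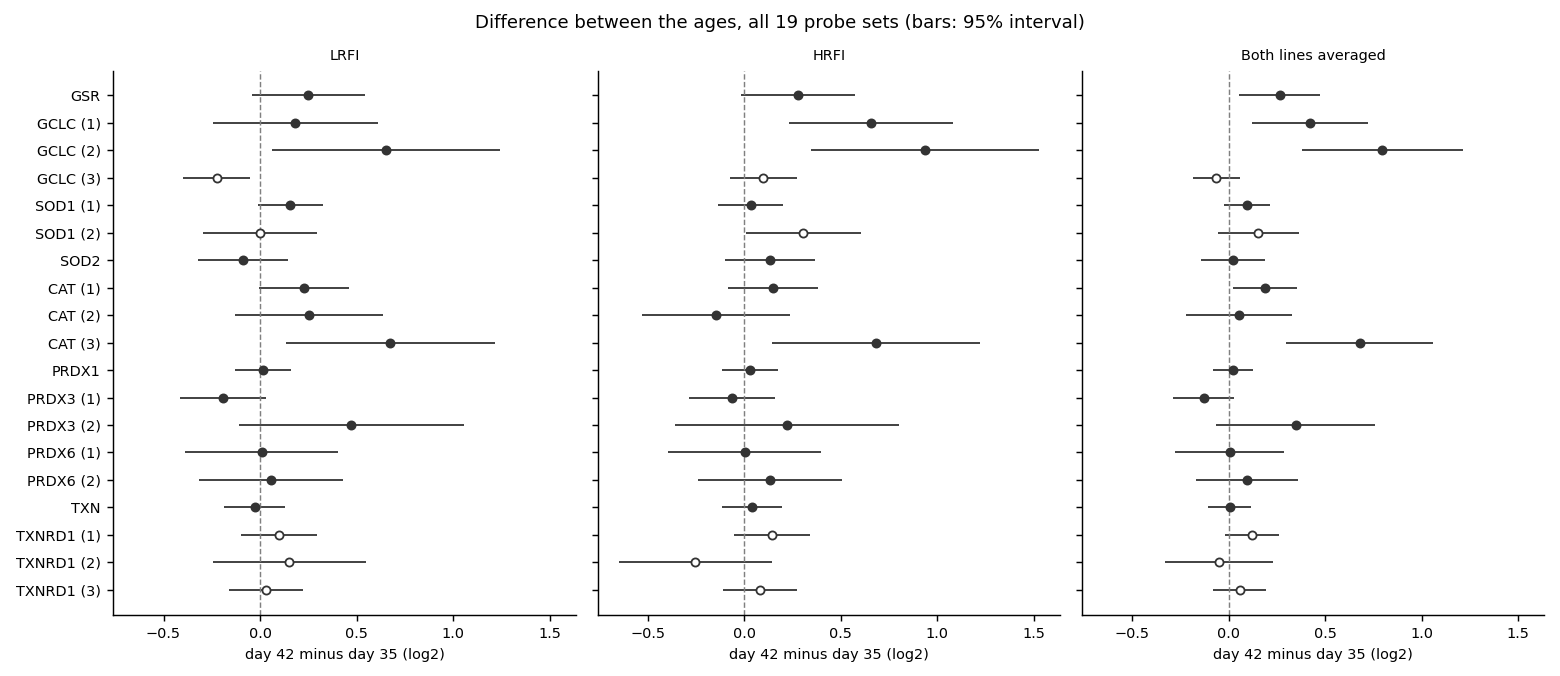
Day 42 minus day 35 in log2 units (x axis) with its 95% interval for each of the 19 probe sets (y axis) in LRFI, in HRFI and averaged over both lines; filled points are probe sets above the median level of the array and open points are dimmer ones. GCLC (2) and CAT (3) have the largest averaged differences, 0.79 and 0.68, while PRDX1 and TXN lie close to 0.

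By a rule, the 3 named genes with values most like each enzyme's brightest probe set over the 16 arrays were found among 12374 genes. GSR was most like MTTP, needed to assemble lipoproteins (r 0.88), IDH2, a mitochondrial NADPH-forming enzyme (r 0.83), and UQCC1 (r 0.82). For CAT they were the bile salt transporter ABCB11 (r 0.85), NUDT7 (r 0.82), a peroxisomal hydrolase, and TBC1D22A (r 0.79). SOD2 was followed by UQCRHL (r 0.88) and UQCRFS1 (r 0.86), which belong to complex III of the respiratory chain, and by NIPAL4 (r 0.87). For PRDX1 they were ACSL5 (r 0.85), an acyl-CoA synthetase, the cytochrome P450 CYP2C23a (r 0.82) and DROSHA (r 0.80). GCLC was most like CA6 (r 0.83), HSPA9 (r 0.80) and SLC25A13 (r 0.80). PRDX3 had FOXJ3 (r 0.90), ARSG (r 0.87) and KCNG1 (r 0.86), and SOD1 had SSBP1 (r 0.82), MOSPD1 (r 0.79) and LPP (r 0.73). For TXN they were MPP3 (r 0.82), VCP (r 0.78) and RPL19 (r 0.77). For PRDX6 they were PHAF1 (r 0.77), RDH10 (r 0.77) and DVL2 (r 0.76). The dim TXNRD1 had CYP4A22 (r 0.84), CYP1A2 (r 0.78) and CLIC5 (r 0.78). These values describe likeness over arrays that share groups and RNA quality, and the best of so many genes is always high.

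The 10 enzymes themselves did not move as a block over the arrays. The highest r between the brightest probe sets of 2 of them was 0.65, for GSR with SOD1 and for GCLC with TXNRD1, and the lowest was −0.54, for PRDX3 with TXNRD1. After the group means were taken out, SOD1 and SOD2 had the highest r, 0.82, while GSR and SOD1 had 0.20.

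Other genes of the pathway were taken from 7 lists of 82 symbols, of which 61 were measured and 54 of those lay above the median level, each by its brightest probe set. None passed the threshold in any comparison, where 0 to 1 of all probe sets did. An unadjusted p under 0.05 was reached by 5 of the 61 between the lines at day 42 (5.57% of all probe sets), 8 at day 35 (6.66%) and 4 averaged (5.48%). Between the ages it was reached by 11 in LRFI (9.83% of all probe sets), 8 in HRFI (8.28%) and 17 averaged over both lines (11.8%). The median difference of the 61 was −0.021 at day 42 and 0.089 at day 35 between the lines, and −0.00089 between the ages averaged over both lines.

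Of the 10 genes listed for NADPH supply 7 were measured, and 0 passed. PGD, the second oxidative enzyme of the pentose phosphate pathway, was 11.80, 11.91, 11.86 and 11.62 in LRFI at day 42, against 11.98, 12.20, 11.97 and 12.05 in HRFI. At day 35 it was 11.91, 12.08, 12.14 and 11.99 in LRFI, against 11.82, 11.41, 11.18 and 11.47 in HRFI. The lines did not overlap at either age, and their order was opposite: LRFI was lower at day 42 and higher at day 35. The differences were −0.25 (SE 0.12, adjusted p 0.888) at day 42 and 0.56 (SE 0.12, adjusted p 0.505) at day 35, where it was 0.35 without the arrays with a high actin difference. The interaction was −0.81 (SE 0.16, unadjusted p 0.00014, adjusted p 0.539) and did not pass.

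TALDO1, transaldolase of the same pathway, had a similar order by its brightest probe set. It was 11.62 ± 0.32 in LRFI and 11.82 ± 0.09 in HRFI at day 42, and 12.19 ± 0.22 in LRFI and 11.73 ± 0.13 in HRFI at day 35 (SD, n = 4 each). The interaction was −0.66 (SE 0.20, adjusted p 0.705), and the other TALDO1 probe sets gave −0.60, −0.12 and 0.21. ME1, the cytosolic malic enzyme, was 11.02, 11.05, 11.46 and 11.00 in LRFI at day 42, against 10.69, 10.25, 10.36 and 10.20 in LRFI at day 35. The ages did not overlap, and the difference was 0.76 (SE 0.16, adjusted p 0.188). In HRFI the age difference of ME1 was 0.22 (SE 0.16, adjusted p 0.765). Its interaction was 0.54 (SE 0.22, adjusted p 0.744), opposite in sign to that of PGD. Without the arrays with a high actin difference the ME1 interaction was only 0.11, with an age difference of 0.66 in LRFI. The contrast of the lines in ME1 therefore depended on those arrays. Of the interactions of the 7 NADPH supply genes by their brightest probe sets, 6 were negative and that of ME1 was positive. Those of IDH1 (−0.0041) and IDH2 (−0.015) were close to none. Over the 61 other redox genes 40 were negative, so the signs set no pattern of NADPH supply apart. NNT, the mitochondrial transhydrogenase, was 0.44 (SE 0.12, adjusted p 0.364) higher at day 42 than at day 35 in HRFI, and 0.35 (SE 0.14) by its other probe set. In LRFI the same probe sets gave 0.070 (SE 0.12) and 0.40 (SE 0.14). Their interactions were −0.36 and 0.047, so whether the lines differed in this depended on the probe set.

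**Figure D5:**
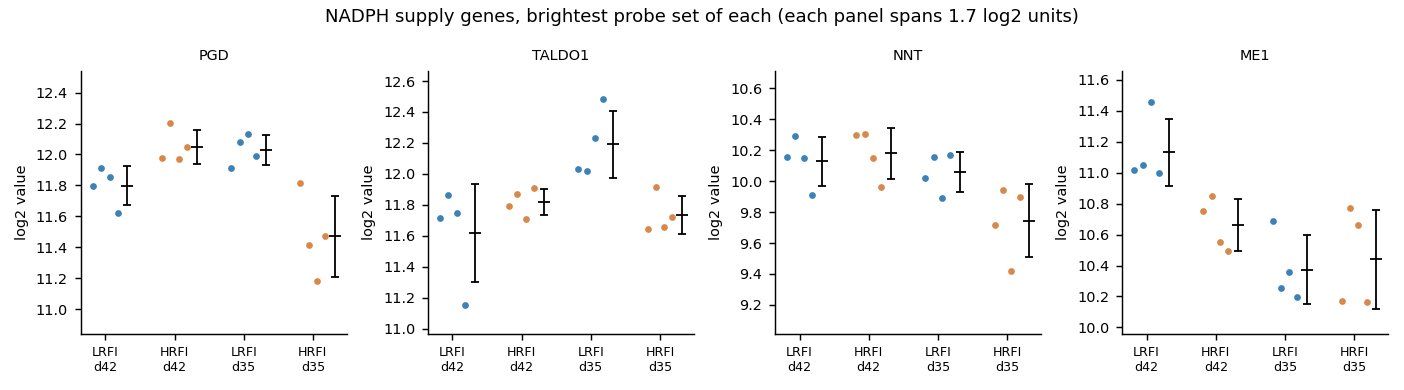
Log2 value (y axis) of the brightest probe sets of the NADPH supply genes PGD, TALDO1, NNT and ME1 on every array (points, 4 per group), with the mean and SD of each group beside the points. For PGD the order of LRFI and HRFI is opposite at the 2 ages, with differences of −0.25 at day 42 and 0.56 at day 35, neither past the threshold.

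Between the ages averaged over both lines, 17 of the 61 genes had an unadjusted p under 0.05, where 11.8% of all probe sets did. Of these, 7 had a positive difference, where 6.18% of all probe sets did, and 10 a negative one. The lowest adjusted p was that of ME1, with a difference of 0.49 (SE 0.11, adjusted p 0.146). SOD3, the extracellular superoxide dismutase, averaged 7.50 ± 0.45 at day 42 and 8.34 ± 0.47 at day 35 over both lines (SD, n = 8 each), a difference of −0.84 (SE 0.22, adjusted p 0.173). GPX3, the secreted glutathione peroxidase, was −0.54 (SE 0.15, adjusted p 0.207). Of the 7 NRF2 pathway regulators measured, 5 had a positive difference, with a median of 0.25. An unadjusted p under 0.05 was reached by 2 in each direction, where 11.8% of all probe sets reached it in either. NFE2L2 itself averaged 10.85 ± 0.22 at day 42 and 10.58 ± 0.23 at day 35 (SD, n = 8 each), a difference of 0.27 (SE 0.11, adjusted p 0.356). CUL3, a scaffold of the ubiquitin ligase that marks NRF2 for breakdown, had 0.48 (SE 0.16, adjusted p 0.271). Without the arrays with a high actin difference these were 0.13 for NFE2L2 and 0.21 for CUL3. The small MAF proteins, partners of NRF2 on DNA, were −0.31 (SE 0.081, adjusted p 0.173) for MAFF and −0.26 (SE 0.082, adjusted p 0.257) for MAFK. CYBA, a subunit of NADPH oxidases, was −0.31 (SE 0.10, adjusted p 0.270). Of the 6 glutathione peroxidases, 5 had a negative difference averaged over both lines, with a median of −0.20 over the 6. An unadjusted p under 0.05 was reached by 1 of the 5, where 11.8% of all probe sets reached it in either direction.

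Between the lines at day 35, the partners of the members with an unadjusted p under 0.05 went both ways. TXNRD2, the mitochondrial thioredoxin reductase, averaged 7.08 ± 0.08 in LRFI and 6.72 ± 0.12 in HRFI (SD, n = 4 each), with no overlap. The difference was 0.36 (SE 0.12, adjusted p 0.662), while its other probe sets differed by 0.085 and −0.00003. GPX4, which reduces lipid peroxides in membranes, differed by −0.44 (SE 0.19, adjusted p 0.722), and the methionine sulfoxide reductase MSRB1 by −0.21 (SE 0.095, adjusted p 0.739). Without the arrays with a high actin difference these were −0.19 for GPX4 and −0.11 for MSRB1. In this comparison an unadjusted p under 0.05 was reached by 3 of the 7 NADPH supply genes, all higher in LRFI, and by 3 of the 17 thioredoxin and glutaredoxin partners, 2 higher and 1 lower, against 6.66% of all probe sets.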

How the data were processed

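Duodenal RNA of 16 arrays was grouped by line and day from the sample labels. Per the labels' protocols, total RNA was extracted with Trizol and labelled with biotin. The deposited log2 values came from Partek 6.5 and RMA, per the submitters' processing notes. RMA corrects background, quantile normalizes arrays and summarizes probes. The values were used as deposited. Of 38535 probe sets, 96 Affymetrix controls were left out. The platform annotation gave 27168 of the others 1 symbol, 177 several and 11094 none. All 19 member probe sets matched a RefSeq gene of assembly GRCg7b by Entrez ID, used for names only. By their ID endings, the probe sets of PRDX1 and TXN, SOD1 (1), PRDX3 (1), GCLC (2), CAT (1), CAT (3), PRDX6 (1), PRDX6 (2) and TXNRD1 (1) hold probes shared by several transcripts.

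Tests used limma 3.58.1 (R 4.3.3), with 1 mean per group fitted to all 16 arrays, eBayes and Benjamini-Hochberg adjustment over 38439 probe sets in each of 7 comparisons. The ± values are SD. Members and lists were chosen with earlier results of these data known. All members were named. From the other lists, up to 8 genes per comparison with the smallest unadjusted p under 0.05 could be named, and not all of these were. NFE2L2, between the ages averaged over both lines, was named outside this rule. The procedure was run on simulated data with independent normal noise in each probe set and differences between the lines only. Such data hold no effect shared by the probe sets of an array, so they do not show how the procedure fares with one. The replicate numbers were not used to pair arrays in these tests. Deviations of same-numbered replicates from their group means had correlations of −0.31 to 0.33. Replicates of unlike number were not compared, so a pairing or shared batch was neither shown nor excluded. The alternatives are given at the end. Enterocyte and GAPDH covariates, and some alternatives of counts and of other redox genes, were chosen after seeing the data.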

Additional observations from a re-analysis of the deposited data

Results flagged for a closer look

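In 76 sets of 4 arrays (19 probe sets in 4 groups), 4 held an array whose gap to its nearest neighbour took up an unusually large share of the range of the group. Chance gives such a gap in about 5% of sets. GCLC (1) read 8.27 on HRFI day 42 replicate 1, against 8.91 to 8.98 on the other 3, a gap of 89.9% of the range. GCLC (2) read 4.30 on HRFI day 35 replicate 4, against 4.68 to 4.70 (93.7%). PRDX6 (1) read 11.66 on HRFI day 35 replicate 1, against 12.23 to 12.31 (88.5%). TXN read 14.07 on LRFI day 35 replicate 4, against 13.94 to 13.95 (90.5%), a distance that is small in itself.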

How the results depend on the processing

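None of the 24 member differences with an unadjusted p under 0.05 passed the threshold in any of their refits. Members were not looked up under unmoderated statistics, with only probe sets above the median level or with only the groups compared. Of 576 refits of member differences with an unadjusted p under 0.05, 575 kept their sign. The exception was TXNRD1 (2) between the lines at day 35, 0.096 without the arrays with a high actin difference. All 1276 refits of other redox genes kept theirs. The differences had been picked for a low p and most refits left out 1 array, so a kept sign was likely beforehand. In some refits it was certain. The replicate block, the trend and robust variance, and leaving out an array of a group not compared cannot change a difference of group means. Sizes changed more. With the GAPDH covariate, GCLC (2) between the ages in LRFI went from 0.65 to 0.05. CAT (2) between the lines at day 42 went from 0.74 to 0.21.

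Counts over all probe sets were less stable. Between the lines at day 42 the count of 1 became 0 with the replicate number as a block, a trend and robust variance, unmoderated statistics, only probe sets above the median level, without the arrays with pancreatic markers and without those with a high actin difference, and 5 with only the groups compared. Averaged over both ages it was 1 with the replicate block and 1 without the arrays with a high actin difference. Between the ages it was, in LRFI, 1 with unmoderated statistics and 1 without the arrays with a high actin difference, and in HRFI 11 with the replicate block and 1 with only the groups compared. Averaged over both lines it was 19 with the replicate block, 6 with trend and robust variance, 25 among probe sets above the median level, 9 without the arrays with a high actin difference, and 0 with unmoderated statistics, with the actin covariate and without the arrays with pancreatic markers.

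The members' median moved at day 42 between the lines to 0.13 for members above the median level and 0.11 without the arrays with a high actin difference. Without those arrays it was 0.16 averaged over both ages, 0.045 between the ages in LRFI and −0.11 for the interaction. Between the ages in LRFI it was 0.17 for members above the median level.

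Leaving out 1 array at a time gave 0 to 5 calls between the lines at day 35, 0 to 1 at day 42 and 0 to 1 averaged. Between the ages it gave 0 to 33 in LRFI, 0 to 1 in HRFI and 0 to 45 averaged, and 0 to 8 for the interaction. The counts of 5, 33, 45 and 8 came without LRFI day 35 replicate 1. The members' median then ran from −0.0077, without HRFI day 42 replicate 1, to 0.11, without HRFI day 42 replicate 4, for the lines at day 42. For the ages it ran from 0.025 to 0.15 in LRFI and from 0.077 to 0.13 in HRFI. The causes were not tested. Dim probe sets limit what can be said of TXNRD1.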
